A study of Saccharomyces cerevisiae with 10 samples.

Results

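Nrd1-unterminated transcripts (NUTs) are non-coding RNAs of *S. cerevisiae* that were annotated as the transcripts that appear when the termination factor Nrd1 is depleted. The NUTs described here are those that can be read while the exosome subunit Rrp6 is present. They were chosen by their measured counts: a NUT was kept when the counts of the 2 *rpb1-84* libraries, in which *RRP6* is intact, added up to at least 40. This left 569 of the 1526 NUTs, out of 10431 annotated features counted in all, and 957 NUTs fell below the limit. Levels in *rpb1-84* therefore describe the choice and support nothing, whereas the libraries of the other 4 strains took no part in it.

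RNA was measured as 3′ tags (QuantSeq, in which 1 read marks the polyadenylated end of an RNA) in 10 libraries, 2 independent cultures of each of 5 strains grown in YPD at 30 °C to an OD600 of about 0.8. WT (YFN116), *rrp6∆* (YFN543) and *rpb1-84 rrp6∆* (YFN545) are MATalpha strains with the same markers (his3-∆200, a mutant *leu2*, trp1-∆63 and ura3-52). In all 3 the chromosomal *RPB1* gene, which encodes the catalytic core subunit of RNA pol II, is disrupted (rpb1-∆187::HIS3) and Rpb1 is made from a 2 µm *LEU2* plasmid, which holds *RPB1* in WT and *rrp6∆* and the foot-domain allele *rpb1-84* in *rpb1-84 rrp6∆*. The last 2 of these strains also carry rrp6∆::KanMX4. The *rpb1-84* strain (YFN519) shares these markers, the *rpb1* disruption and the plasmid with the *rpb1-84* allele, has *RRP6*, and in addition carries a tagged *RPB4* (RPB4::TAP::TRP1). The *rpb4∆* strain (Y01285) is of another background: MATa, his3-∆1, leu2-∆0, met15-∆0, ura3-∆0 with rpb4∆::kanMX4 and *RPB1* in its own place. *RPB4* encodes a stalk subunit of RNA pol II, whose docking is impaired in *rpb1-84*. The WT libraries that belong to *rpb1-84* and *rpb4∆* are not used here, so both strains are set beside the WT of the *rrp6∆* experiment as a description, with no test.

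Short non-coding transcripts in yeast are ended by the Nrd1-Nab3-Sen1 (NNS) complex, which travels with RNA pol II early in transcription and binds short motifs in the nascent RNA. NNS hands the released RNA to the TRAMP complex, which adds a short poly(A) tail, and the nuclear exosome with its exonuclease Rrp6 then degrades or trims it. CUTs are the cryptic transcripts that appear when Rrp6 is lost, SUTs are stable non-coding transcripts seen without such loss, and XUTs appear when the cytoplasmic exonuclease Xrn1 is lost. Many NUTs cover the same stretch of genome as a CUT, with the NUT reaching further because termination failed.

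Counts per library ranged from 1415496 to 7268211, the lowest in *rpb4∆* and the highest in *rpb1-84*. The *RPB4* feature held 7 and 4 counts in the *rpb4∆* libraries and 508 and 606 in WT, and 33 and 59 in *rpb1-84*, whose *RPB4* is tagged. The *RRP6* feature did not fall in the libraries labelled *rrp6∆*, where it held 572 and 548 counts beside 231 and 171 in WT and 290 and 176 in *rpb1-84 rrp6∆*. A 3′ tag checks a deletion only where the tagged end was removed, and the position of these tags relative to the rrp6∆::KanMX4 insertion is not given, so this feature does not check the labels. "*rrp6∆*" below means the libraries labelled so.

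The chosen NUTs were mostly of low abundance. The sum over the *rpb1-84* libraries ranged from 40 to 18398, with a median of 90 and quartiles of 56 and 161. It lay between 40 and 79 for 245 NUTs and reached 400 in 45. Just inside the limit were NUT0299 and NUT0329, each with 15 and 25 counts in the replicates, and just outside were NUT0019 with 14 and 25 and NUT0121 with 10 and 29.

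Some of these NUTs had the same or nearly the same counts as other annotated features. Identical counts in all 10 libraries were found in a feature of another class for 8 NUTs: NUT0027 and CUT017, NUT0083 and CUT048, NUT0117 and SUT053, NUT0503 and SUT255, NUT1157 and SUT618, NUT1261 and SUT701, and, among features taken as XUTs by their names, NUT0620 and 13F370 and NUT1384 and 15R33. A further 84 NUTs had a feature of another class whose counts differed by 5% or less over the 10 libraries. In all, 23 NUTs had such a CUT, 27 such a SUT and 58 such an XUT, while none had such an ORF or sn(o)RNA, and 477 had neither kind of partner. Positions were not used, so whether a NUT and its partner share reads was not tested, and close counts alone do not show it. For the 92 NUTs with a partner, a value may belong to both features, and the counts cannot be assigned to either. How reads on overlapping features were counted, and whether strand was used, is not given in the sources used here.

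The NUTs took a larger share of all counts in the strains that lack Rrp6. They held 0.832% and 0.754% of the counts in the WT libraries. In *rrp6∆* they held 8.08% and 7.78%, and in the double mutant *rpb1-84 rrp6∆* 6.10% and 5.99%. The replicates of a strain lay close together and the 3 strains did not overlap. The mean share was 0.793% ± 0.0548 (SD, n = 2) in WT and 7.93% ± 0.211 in *rrp6∆*. The mean of the double mutant, 6.04% ± 0.0800, was 7.62 times that of WT and 0.762 times that of *rrp6∆*. With Rrp6 present the shares were 1.07% ± 0.0271 in *rpb1-84*, whose counts chose the NUTs, and 0.442% ± 0.00153 in *rpb4∆*. These shares are given without a test. For 2 libraries against 2, the smallest exact two-sided permutation p is 0.333.

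Levels per NUT were compared as CPM, counts scaled to the effective size of each library, normalized over all 10 libraries. The median NUT measured 7.93 CPM in WT, 9.01 in *rpb1-84*, 24.0 in *rrp6∆*, 21.2 in *rpb1-84 rrp6∆* and 4.89 in *rpb4∆*. More than 100 CPM was reached by 7 NUTs in WT, 63 in *rrp6∆* and 59 in the double mutant, and more than 1000 CPM by 14 NUTs in *rrp6∆* and 11 in the double mutant but by none in WT or *rpb4∆*. The NUTs with under 40 counts in *rpb1-84* had lower medians in every strain, 1.60 CPM in WT and 7.48 CPM in *rrp6∆*. No NUT of those chosen was without counts in WT, *rrp6∆* or *rpb1-84 rrp6∆*, while 9 had no count in either *rpb4∆* library, the shallowest pair.

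**Figure D1:**
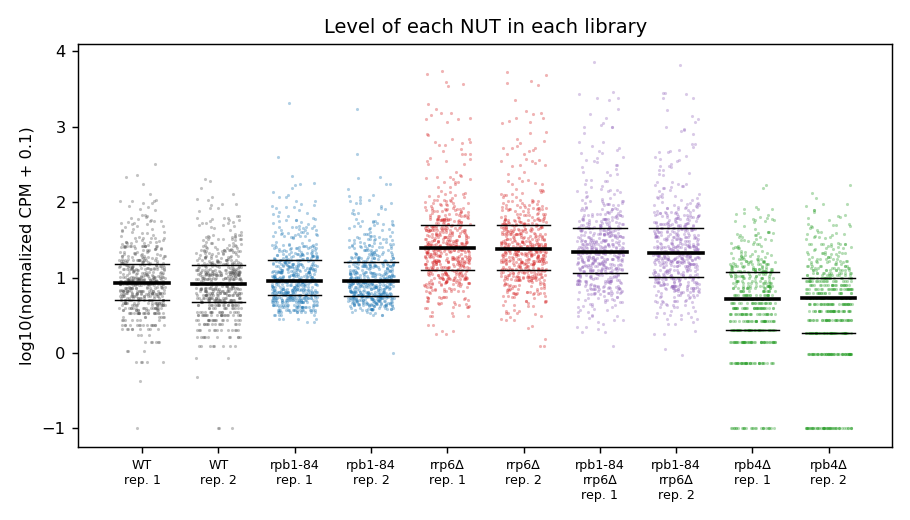
Level of each of the 569 NUTs (points) in each of the 10 libraries, as log10 of normalized CPM plus 0.1, with the median (thick line) and quartiles (thin lines). The median lines of the *rrp6∆* and *rpb1-84 rrp6∆* libraries lie above those of the WT libraries, and the *rpb4∆* libraries lie lowest, with rows of points at small whole counts.

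The same few NUTs did not dominate in every strain. The 10 most abundant NUTs held 17.4% of all counts on the chosen NUTs in WT, 47.1% in *rrp6∆*, 46.5% in *rpb1-84 rrp6∆* and 17.4% in *rpb4∆*. *rrp6∆* and *rpb1-84 rrp6∆* had 7 of these 10 in common, *rrp6∆* and WT 4, and *rrp6∆* and *rpb4∆* 0. NUT0258 led in both strains without Rrp6, with 8.48% ± 0.0748 of the NUT counts in *rrp6∆* and 12.6% ± 0.652 in *rpb1-84 rrp6∆*. NUT0470 led in *rpb4∆*, with 3.05% ± 0.0634 (SD, n = 2 each). In WT the mean share was highest for NUT0356, at 3.08% ± 0.945, but the WT libraries differed in their order. NUT0356 measured 321 CPM beside 214 for NUT0628 in WT replicate 1, and 189 beside 203 CPM in replicate 2.

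The first comparison asked how these NUTs change when Rrp6 is lost and RNA pol II is intact. Most of them accumulated in *rrp6∆*. Of the 568 NUTs that passed the filter on low counts, 392 were called higher in *rrp6∆* than in WT and 3 lower, where a call needs a log2 fold change beyond 1 and an adjusted p below 0.1 in edgeR's quasi-likelihood test over all 9197 features tested. That is 69.0% of the NUTs tested against 32.2% of all features called higher, and 0.528% against 6.75% called lower. The median log2 fold change was 1.66, with quartiles of 0.77 and 2.55, beside −0.01 over all features and −0.48 over ORFs. The NUT left out by the filter, NUT0742, had 0 and 1 counts in WT and 16 and 8 in *rrp6∆*.

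The size of the change differed widely among NUTs. The log2 fold change lay between 1 and 2 for 166 NUTs, between 2 and 3 for 138, between 3 and 4 for 54 and at 4 or more for 34. NUT0490 rose most, from 6.83 and 2.29 CPM in WT to 579 and 527 CPM in *rrp6∆*, a log2 fold change of 6.92 ± 0.176 (SE; edgeR adjusted p = 3.22e-28). NUT1395 rose from 30.3 and 19.0 CPM to 2020 and 2290 CPM, a log2 fold change of 6.49 ± 0.142 (edgeR adjusted p = 2.18e-29). In both, each *rrp6∆* library stood far above each WT library. NUT0805, at 26.0 and 10.3 CPM in WT, and NUT1169, at 7.16 and 3.05 CPM, followed with log2 fold changes of 6.11 and 6.17, the latter with nearly the same counts as CUT681, which differed from it by 4.8%. The size of these rises depended on the WT library: without WT replicate 1 the log2 fold change was 7.97 for NUT0490, 6.97 for NUT0805 and 6.96 for NUT1169, and without WT replicate 2 it was 6.38, 5.62 and 5.71.

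**Figure D2:**
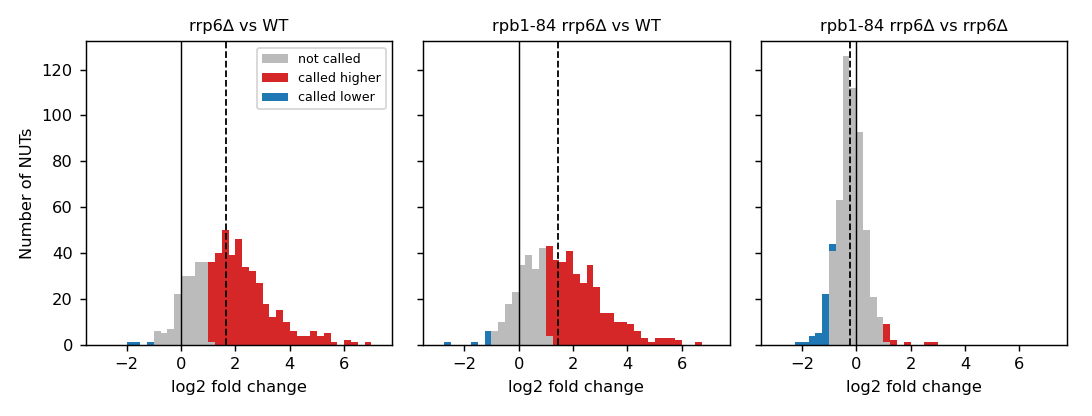
Number of NUTs (568 tested) by log2 fold change in the 3 comparisons of the *rrp6∆* experiment, coloured by call, with the median as a dashed line. The medians of 1.66 and 1.44 against WT lie to the right of 0, and that of the double mutant against *rrp6∆*, −0.23, just to the left.

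The 3 most abundant NUTs of *rrp6∆* were also among the 10 most abundant of WT. NUT0258 measured 229 and 126 CPM in WT and 5440 and 5280 CPM in *rrp6∆* (log2 fold change 4.96 ± 0.149, edgeR adjusted p = 3.41e-26). NUT0628 measured 214 and 203 CPM in WT and 5010 and 4860 CPM in *rrp6∆* (4.62 ± 0.109, adjusted p = 4.09e-29). NUT1162, the fifth most abundant in *rpb1-84*, measured 175 and 152 CPM in WT and 3880 and 4010 CPM in *rrp6∆* (4.65 ± 0.107, adjusted p = 3.05e-29). The WT and *rrp6∆* libraries did not overlap in any of them. NUT0258 and NUT0628 were picked for their share after their values were seen.

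The 34 NUTs with a log2 fold change of 4 or more held 14.7% of the NUT counts in WT and 61.4% in *rrp6∆*. In these NUTs the WT replicates differed: replicate 1 was above replicate 2 in 29 of the 34, with a median log2 difference of 0.57, beside 0.06 in the other 534 NUTs. The *rrp6∆* replicates differed by a median of 0.03 in the same 34. Without WT replicate 1 their median log2 fold change was 5.25, without WT replicate 2 it was 4.58, and all 34 were called higher either way. These 34 were set apart after their values were seen, by a fold change that uses the WT libraries, and the source of the difference between the WT replicates was not tested.

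Not every NUT passed the call. At an adjusted p below 0.1 alone, edgeR placed 471 NUTs above WT and 16 below, beside 3599 and 3473 of all 9197 features. A NUT that was not called may therefore still have changed by less than 2-fold. A total of 173 passed neither direction of the call, and among the 33 NUTs with at least 100 counts in each WT library, 4 had log2 fold changes within 0.2 of 0: NUT1131 at 0.03 ± 0.119, NUT0675 at −0.06 ± 0.101, NUT1197 at −0.17 ± 0.118 and NUT0103 at −0.19 ± 0.102 (SE). NUT0675 measured 104 and 106 CPM in WT and 103 and 90.4 CPM in *rrp6∆*. NUT1131 measured 51.1 and 59.0 CPM in WT and 54.8 and 52.9 CPM in *rrp6∆*. These levels overlap or lie next to each other, and the sign of such small changes depends on the scaling: with the scale set on ORFs, NUT0675, NUT1197 and NUT0103 had log2 fold changes of 0.43, 0.31 and 0.30.

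Only 3 NUTs were called lower in *rrp6∆*. NUT1135 fell from 12.4 and 15.6 CPM to 3.94 and 2.88 CPM, a log2 fold change of −1.95 ± 0.292 (edgeR adjusted p = 3.23e-07). NUT1303 fell from 29.0 and 34.7 CPM to 11.0 and 9.81 CPM (−1.54 ± 0.198, edgeR adjusted p = 1.58e-08). For both, the WT and *rrp6∆* libraries were well apart and the call held under all 13 alternatives tried. NUT0633 had only 7 and 13 counts in WT and 12 and 10 in *rrp6∆*, and its log2 fold change of −1.09 ± 0.478 lost its call without WT replicate 2 (−0.49), without *rrp6∆* replicate 2, in DESeq2 and in 3 other alternatives. Without WT replicate 1, 6 NUTs were called lower.

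The rise is set beside the counts in *rpb1-84* as a description only, since those counts chose the NUTs and their range starts at 40. The most abundant NUTs of *rpb1-84* differed among themselves: NUT1269 had a log2 fold change of 3.02 ± 0.102 and was called higher, while NUT0356 (0.42 ± 0.128), NUT0207 (0.68 ± 0.103) and NUT0959 (0.81 ± 0.140) were not called. Of the NUTs below the limit, 713 of 810 tested were called higher, with a median of 2.44. The filter on low counts left out 147 of these 957 NUTs, and one low in WT can pass it through the strains without Rrp6. With untested NUTs included, 74.5% of the NUTs below the limit and 68.9% of the chosen NUTs were called higher. This difference from the chosen NUTs was not tested, since the limit itself sorts NUTs by their level in a strain with Rrp6.

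**Figure D3:**
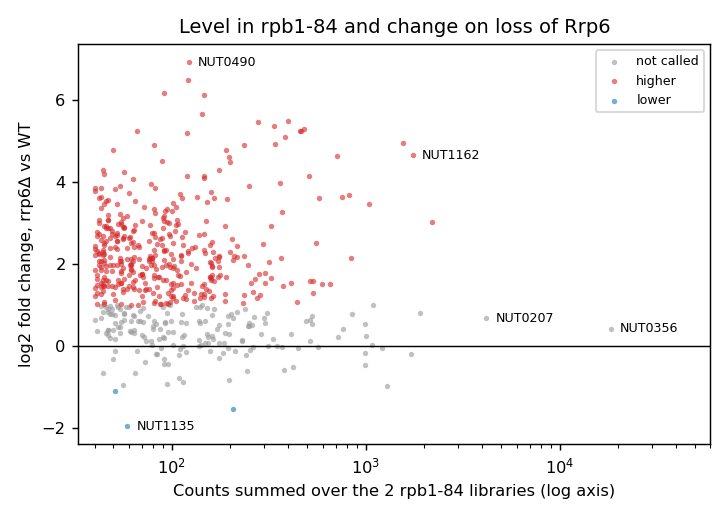
Log2 fold change in *rrp6∆* against WT for the 568 NUTs tested, plotted against the counts summed over the 2 *rpb1-84* libraries (log axis) that chose them, coloured by call. NUT0490 has the largest rise with few counts in *rpb1-84*, and NUT0356, by far the most abundant there, lies near 0.

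The calls in *rrp6∆* were also counted by whether a NUT had a partner feature. Of the 92 NUTs with a partner within 5%, edgeR called 64 higher and 0 lower, beside 32.2% of all features called higher and 6.75% lower. At an unadjusted p under 0.05 0 of the 92 lay below WT, and DESeq2 called 0 lower. Their median log2 fold change was 1.44. Of the 476 without a partner, 328 were called higher and 3 lower, and the median was 1.73. Among the NUTs with identical partners, NUT0620 (13F370) went from 3.25 and 1.90 CPM in WT to 47.3 and 46.4 CPM in *rrp6∆*, a log2 fold change of 4.20. NUT0027 (CUT017), NUT1384 (15R33) and NUT0117 (SUT053) also rose, with log2 fold changes of 2.74, 1.68 and 1.31, the first with 3.33 when WT replicate 1 was left out. Among those with a near-identical partner, NUT1007 (CUT585) rose by 2.98, NUT0882 (4R81) by 1.58 and NUT1423 (15R249) by 1.17 on the log2 scale.

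The second comparison set the double mutant, with the assembly-defective Rpb1 and no Rrp6, against WT. It shares the WT libraries with the first comparison. In *rpb1-84 rrp6∆*, 350 of the 568 NUTs were called higher and 8 lower, 61.6% against 28.0% of all features called higher and 1.41% against 6.40% called lower. The median log2 fold change was 1.44, with quartiles of 0.54 and 2.44, beside −0.34 over ORFs.

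In the double mutant NUT0490 reached 490 and 455 CPM, a log2 fold change of 6.67 ± 0.178 against WT (edgeR adjusted p = 3.83e-27). NUT0805 went from 26.0 and 10.3 CPM in WT to 1110 and 1150 CPM (5.95 ± 0.160). NUT0255 went from 58.2 and 27.0 CPM to 2410 and 2380 CPM (5.81 ± 0.154, edgeR adjusted p = 3.83e-27). In each of the 3 the double mutant stood far above WT in both libraries, although the WT replicates themselves were more than 2-fold apart. Without WT replicate 1 the log2 fold changes were 7.72 for NUT0490, 6.82 for NUT0805 and 6.51 for NUT0255, and without WT replicate 2 they were 6.13, 5.46 and 5.38.

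The 8 NUTs called lower in the double mutant than in WT were NUT1135, NUT1136, NUT1210, NUT1078, NUT1497, NUT0318, NUT0723 and NUT1503. NUT1135 measured 2.78 and 1.04 CPM in the double mutant, a log2 fold change of −2.75 ± 0.341 (edgeR adjusted p = 1.09e-08) that was −3.66 without double-mutant replicate 1. NUT1136 measured 18.9 and 21.0 CPM in WT, 18.6 and 17.7 CPM in *rrp6∆* and 7.21 and 6.25 CPM in the double mutant, a log2 fold change of −1.52 ± 0.220 against WT (adjusted p = 2.27e-07). It was low in both double-mutant libraries alone among these 3 strains. NUT1210 and NUT1078 had log2 fold changes of −1.21 and −1.13. NUT1135 and NUT1136 kept their calls under every alternative. The other 6 lost theirs under at least 2, among them the scale set on ORFs for all 6.

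The third comparison, *rpb1-84 rrp6∆* against *rrp6∆*, asked what the *rpb1-84* allele does to NUTs when Rrp6 cannot remove them. The accumulation of NUTs was slightly lower in the double mutant for most of them, and few changed by more than 2-fold. Of the 568 NUTs, 36 were called lower and 13 higher. That is 6.34% against 6.49% of all features called lower and 2.29% against 1.96% called higher, so the shares were near those of all features. Among ORFs alone, 1.95% were called lower and 2.11% higher. The median log2 fold change was −0.23, with quartiles of −0.50 and 0.11, beside −0.02 over all features and 0.14 over ORFs. Values were below 0 for 381 NUTs and above 0 for 187, beside 4747 and 4450 of all 9197 features. At an adjusted p below 0.1 alone, edgeR placed 233 NUTs below *rrp6∆* and 75 above, beside 2286 and 2317 of all features. In 300 NUTs the higher of the double-mutant libraries was under the lower *rrp6∆* library (52.8%, against 34.4% of all features), and in 129 the order was the opposite (22.7%, against 36.7%). With the scale set on ORFs, the median of all features was −0.17 and that of the NUTs −0.37, with 52 called lower and 8 higher.

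Of the 4 largest falls, 3 were in NUTs whose level in the double mutant lay next to that of WT. NUT0161 measured 6.18 and 5.33 CPM in WT, 23.5 and 24.5 CPM in *rrp6∆* and 5.08 and 5.83 CPM in the double mutant, a log2 fold change of −2.18 ± 0.194 against *rrp6∆* (edgeR adjusted p = 3.20e-11). NUT0293 measured 8.13 and 6.48 CPM in WT, 25.5 and 21.2 CPM in *rrp6∆* and 5.90 and 6.66 CPM in the double mutant (−1.93 ± 0.193, adjusted p = 4.72e-10). NUT0778 followed the same course, with 19.3 and 19.5 CPM in *rrp6∆* and 6.88 and 5.83 CPM in the double mutant (−1.63 ± 0.195). In each of these 3, only the *rrp6∆* libraries stood apart from the rest of the experiment. NUT0903, a NUT with a larger response, went from 42.0 and 37.3 CPM in WT to 509 and 433 CPM in *rrp6∆* and 144 and 155 CPM in the double mutant, below *rrp6∆* (−1.68 ± 0.0935, adjusted p = 1.79e-16) and still above WT (log2 fold change 1.94 ± 0.125).

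NUT1136 and NUT1210 were also among the 36 NUTs called lower, with log2 fold changes of −1.45 and −1.16 against *rrp6∆*. Abundant NUTs were among them too: NUT1395 measured 991 and 863 CPM in the double mutant, a log2 fold change of −1.25 ± 0.0976 against *rrp6∆*. NUT0186, picked for its share after its values were seen, went from 3730 and 3820 CPM to 1700 and 1670 CPM (−1.19 ± 0.0916, edgeR adjusted p = 8.81e-13). Of the 36 calls, 20 held under every alternative.

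The 13 NUTs called higher in the double mutant than in *rrp6∆* were led by NUT0356. It measured 321 and 189 CPM in WT, 350 and 310 CPM in *rrp6∆*, and 2280 and 2410 CPM in the double mutant, a log2 fold change of 2.80 ± 0.126 against *rrp6∆* (edgeR adjusted p = 7.39e-19). In the *rpb1-84* strain, whose counts chose it, it measured 2060 and 1730 CPM. The 4 libraries with the *rpb1-84* allele were thus the high ones, and the 2 *rrp6∆* libraries lay close to WT.

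The next 3 did not have that pattern. NUT1303 measured 29.0 and 34.7 CPM in WT, 11.0 and 9.81 CPM in *rrp6∆* and 50.3 and 71.4 CPM in the double mutant, a log2 fold change of 2.50 ± 0.161 against *rrp6∆* (edgeR adjusted p = 7.78e-15), and 18.9 and 21.6 CPM in *rpb1-84*. NUT0245, with nearly the same counts as 7F36, measured 14.9 CPM in both *rrp6∆* libraries and 50.4 and 57.3 CPM in the double mutant (1.82 ± 0.138, adjusted p = 7.36e-13), beside 5.18 and 5.07 CPM in *rpb1-84*. NUT1423, with nearly the same counts as 15R249, measured 83.7 and 82.8 CPM in *rrp6∆* and 230 and 246 CPM in the double mutant (1.49 ± 0.0909, adjusted p = 1.78e-15), beside 20.1 and 14.0 CPM in *rpb1-84*. In all 3 the double mutant was high and *rpb1-84* with Rrp6 was below WT. Of the 13 calls, 7 held under every alternative, these 4 among them.

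**Figure D4:**
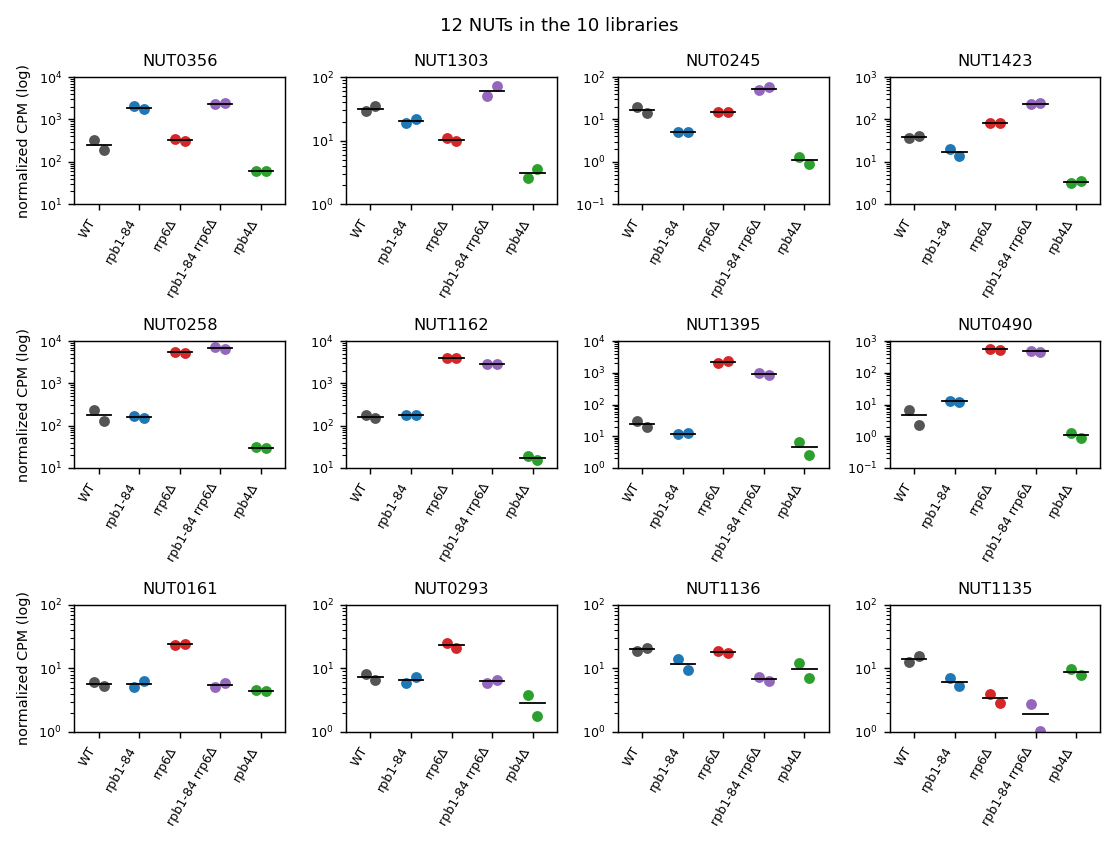
Normalized CPM (log axis) of 12 NUTs in the 10 libraries, 2 points per strain and a line at their mean. NUT0356 is high in the 4 libraries with the *rpb1-84* allele, NUT1303, NUT0245 and NUT1423 are highest in *rpb1-84 rrp6∆* alone, NUT0258, NUT1162, NUT1395 and NUT0490 are high in both strains without Rrp6, and NUT0161 and NUT0293 are high in *rrp6∆* only.

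With Rrp6 present, the median level over all 569 chosen NUTs was 9.01 CPM in *rpb1-84* and 7.93 CPM in WT. This is a description only, since the *rpb1-84* counts chose the NUTs, which lifts their values there, and since the strain also differs by the *RPB4* tag. Ratios were taken for the 401 NUTs with at least 30 counts over the WT libraries, on the scale of log2 of CPM plus 0.5. This limit leaves out NUTs low in WT, which can lower the ratios, against the lift from the choice. For these 401 NUTs the median log2 ratio of *rpb1-84* to WT was 0.03, with quartiles of −0.50 and 0.53, beside 0.06 over ORFs. The ratio was more than 2-fold above WT for 38 NUTs and more than 2-fold below for 41, where 13.9% of all 6259 features with such counts were above and 17.1% below. NUT0864 had the highest ratio, with 5.86 and 8.0 CPM in WT and 94.4 and 104 CPM in *rpb1-84*. NUT1187 measured 12.7 and 11.0 CPM in WT and 115 and 106 CPM in *rpb1-84*. NUT0117 had the lowest ratio, with 62.8 and 64.8 CPM in WT and 8.83 and 4.03 CPM in *rpb1-84*, followed by NUT1007 and NUT0369 with log2 ratios of −2.16 and −1.87. Each of these lay clear of WT in both libraries. A partner feature within 5% was found for NUT0117 (SUT053), NUT1007 (CUT585), NUT0369 (9F138) and NUT1187 (10R186), so their values may belong to both features. The NUTs with under 40 counts in *rpb1-84* stood lower, which the same choice brings about in part. In the 92 of them with at least 30 WT counts the median log2 ratio was −1.38, with 67 more than 2-fold below WT and 0 above.

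The double mutant against *rrp6∆* gives values for the allele from other libraries, which are set beside these ratios as a description. The ratio of *rpb1-84* to WT comes from libraries that chose the NUTs and spans the *RPB4* tag, so it gives the calls no support. NUT0864 was called higher there (log2 fold change 1.11 ± 0.195, edgeR adjusted p = 2.01e-05, though not under 4 of the alternatives), and NUT0117 (−1.16 ± 0.0941) and NUT0369 (−1.25 ± 0.149) were called lower. NUT1187 (0.67) and NUT1007 (−0.26) were not called. Over the 401 NUTs the 2 values had a Pearson's r of 0.28 and a Spearman's rho of 0.24, given as a description over NUTs that share these libraries. The share of counts on the NUTs was 1.07% in *rpb1-84* and 6.04% in the double mutant, and the median log2 ratio of the double mutant to *rpb1-84* was 1.02 over the 569 NUTs, again as a description.

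**Figure D5:**
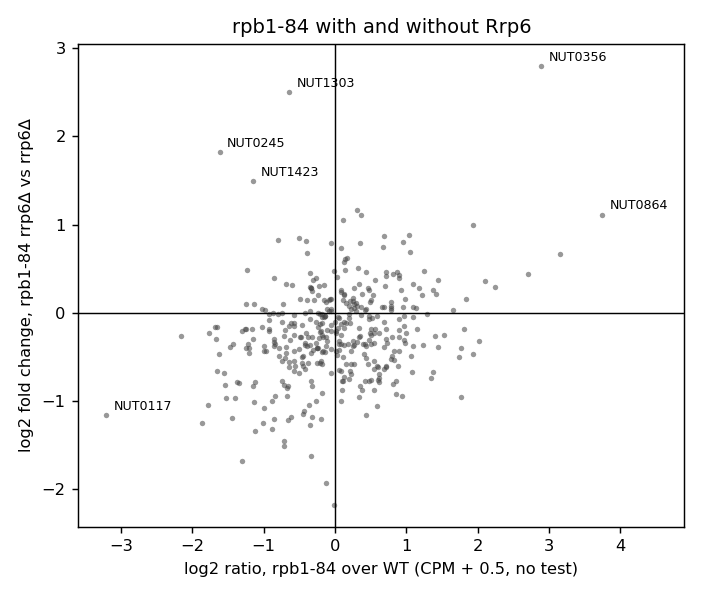
Log2 ratio of *rpb1-84* to WT (mean CPM plus 0.5, no test) and log2 fold change of *rpb1-84 rrp6∆* against *rrp6∆* for 401 NUTs (points). Most points lie in a cloud around 0 with r of 0.28. NUT0356 and NUT0864 lie high in both, NUT0117 low in both, and NUT1303, NUT0245 and NUT1423 in the upper left.

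In *rpb4∆* the NUTs were mostly below WT, in a strain whose background also differs, so that the deletion and the background cannot be told apart. For the 401 NUTs the median log2 ratio of *rpb4∆* to WT was −0.71, with quartiles of −1.48 and −0.09, beside 0.16 over ORFs. The limit of 30 counts in WT leaves out features low in WT, which can lower such ratios, and it was applied to the ORFs too. The ratio was more than 2-fold below WT for 158 NUTs and more than 2-fold above for 15, where 13.9% of all features with such counts were below and 6.14% above. NUT0288 had no count in *rpb4∆* and 92 and 84 counts in WT, at least 27.7-fold lower against a floor of 3 counts over the strain. NUT0959 had no count in *rpb4∆* and 81 and 76 in WT, at least 24.7-fold lower. NUT0912 had 1 count in each *rpb4∆* library and 124 and 96 in WT, a ratio of 0.0193 (95% exact interval 0.00232 to 0.0704, counting error only), all on the scale of normalized CPM. All 3 were readable in each library of the other 4 strains.

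A few NUTs were higher in *rpb4∆*. NUT1027 measured 7.48 and 6.09 CPM in WT and 36.7 and 27.3 CPM in *rpb4∆*. NUT0470, with nearly the same counts as 11F230, measured 39.4 and 52.2 CPM in WT and 166 and 170 CPM in *rpb4∆*, the highest NUT of that strain. NUT1013 measured 20.2 and 19.0 CPM in WT and 69.6 and 66.9 CPM in *rpb4∆*. Both *rpb4∆* libraries exceeded both WT libraries in each of them. NUT0356, high in both strains with *rpb1-84*, was low here, at 59.2 and 60.7 CPM.

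Genes of, or linked to, the pathway that ends and clears NUTs were counted in the same way. The list of 26 held genes for NNS, TRAMP and the exosome with its cofactors, together with *PCF11*, *SSU72*, *RTR1*, *STO1* and *CBC2*. Of these 26, 1 was called higher and 2 lower in *rrp6∆* against WT. Among all features 32.2% were called higher and 6.75% lower, and among ORFs 4.17% and 11.5%. *NRD1*, which encodes the RNA-binding NNS subunit and whose own mRNA is a known target of NNS, had 268 and 222 counts in WT and 1655 and 1535 in *rrp6∆*, a log2 fold change of 1.46 ± 0.0992 (edgeR adjusted p = 2.74e-15). *PAP2*, the poly(A) polymerase of TRAMP, and *MTR4*, its helicase, were called lower, with log2 fold changes of −1.04 ± 0.108 and −1.11 ± 0.0960. Neither was called with the scale set on ORFs (−0.55 and −0.62) or on total counts (−0.72 and −0.79), and *PAP2* was not called in a fit of the 4 libraries alone (−0.94), whereas *NRD1* was called higher in each of these. In the double mutant against WT, *NRD1* was called higher (1.31) and *PAP2* lower (−1.33), the latter not with the scale set on ORFs (−0.99). In the double mutant against *rrp6∆* edgeR called none of the 26 and DESeq2 called 0, while at an unadjusted p under 0.05 9 lay above *rrp6∆* and 4 below. Small changes of this kind were common among ORFs. Of 5178 ORFs tested, 1916 lay above *rrp6∆* and 727 below at an adjusted p below 0.1 in edgeR, a different limit. *RRP6* itself had a log2 fold change of −0.94 ± 0.112 there (edgeR adjusted p = 2.23e-08), just short of a call. It was called lower with the scale set on ORFs (−1.09) and on total counts (−1.08). Without double-mutant replicate 1 its log2 fold change was −1.13. In this comparison *NRD1*, *NAB3* and *SEN1*, the 3 NNS subunits, had log2 fold changes of −0.15, 0.33 and −0.20.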

How the data were processed

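QuantSeq 3′ reads were inspected in FastQC, Fastx Clipper took off the adapters, HISAT2 placed the reads on S288C (R64), and featureCounts assigned them to annotated features. The authors deposited these raw counts, without normalization, as 1 table per library. Tool versions, strand setting and the treatment of overlapping features are not given in the sources used here, and positions and sequences of NUTs were not used here.

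NUTs were selected by identifier and by their *rpb1-84* counts. The members and gene lists were chosen with earlier results of these data known. The 6 libraries of WT, *rrp6∆* and *rpb1-84 rrp6∆* were fitted together with edgeR 4.0.16 (R 4.3.3, limma 3.58.1): TMM over all features, filterByExpr, quasi-likelihood tests and Benjamini-Hochberg adjustment over 9197 features. A call needed, as in the study, a log2 fold change over 1 in size with the adjusted p under 0.1. Standard errors were derived from the F statistic. The biological coefficient of variation was 0.0611. The test was checked first on simulated counts with rises and falls in balance, which does not cover a mostly one-sided change such as that in *rrp6∆*. CPM were scaled by TMM over all 10 libraries. Tables came from pandas 2.3.3 and scipy 1.17.1 in Python 3.11.15, and figures from matplotlib 3.10.9.

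Named were the 6 NUTs with most *rpb1-84* counts, per comparison the 4 largest called rises and falls with libraries that did not overlap, the 4 smallest changes in *rrp6∆* among NUTs with at least 100 counts in each WT library, those next to the limit, 4 each with identical and near-identical partners, and the 3 highest and lowest ratios of *rpb1-84* and *rpb4∆* to WT. Alternatives were TMM from ORFs, DESeq2 size factors, total counts, no filter, DESeq2 1.42.0, a replicate block, only the 4 libraries compared, and each library left out. The labels only number the replicates. The paper describes those of *rpb1-84* as independent biological replicates and gives the same workflow or conditions for the other strains. Depth limits low NUTs: 3 counts over both libraries of a strain correspond to 0.214 to 1.12 normalized CPM. Intervals and floors cover counting error only, since the counts are reads and not independent molecules.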

Additional observations from a re-analysis of the deposited data

Results flagged for a closer look

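In 13 of the named NUTs, both libraries with the *rpb1-84* allele lay to one side of WT, with Rrp6 present, and both to the opposite side of *rrp6∆*, without it. The difference between these readings was not tested, the first rests on libraries that chose the NUTs, and it also spans the *RPB4* tag. The share of all features with such a joint pattern was not counted, so how common it is cannot be told. In the double mutant against *rrp6∆* alone, both libraries lay above both in 36.7% of all features and below both in 34.4%. By sign alone, 125 of the 401 NUTs with ratios were above WT and below *rrp6∆*, and 43 were below WT and above *rrp6∆*. High with Rrp6 and low without it were NUT0207 (log2 1.76 and −0.40), NUT1269 (1.37 and −0.67), NUT0490 (1.35 and −0.26), NUT0027 (0.97 and −0.15), NUT1169 (0.79 and −0.53), NUT1197 (0.69 and −0.11), NUT1210 (0.44 and −1.16), NUT1013 (0.27 and −0.58) and NUT0675 (0.22 and −0.69). Of these 9, NUT1210 was called in *rpb1-84 rrp6∆* against *rrp6∆* by edgeR. Low with Rrp6 and high without it were NUT0245 (−1.62 and 1.82), NUT1423 (−1.15 and 1.49), NUT1303 (−0.64 and 2.50) and NUT0912 (−0.29 and 0.14), of which the first 3 were called.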

How the results depend on the processing

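The counts of NUTs called higher against WT kept to within 1.5 times, at 385 to 463 in *rrp6∆* and 344 to 412 in the double mutant, as did those called lower in the double mutant against *rrp6∆*, at 31 to 52. Small counts and medians moved with the scale. With TMM from ORFs the medians were 2.14, 1.78 and −0.37 in the 3 comparisons, 2 NUTs were called lower in the double mutant against WT and 8 higher against *rrp6∆*. With total counts the medians were 1.97, 1.62 and −0.37, with 3 and 8 NUTs called. Fitting only the 4 libraries compared gave a median of 1.76 in *rrp6∆*. As a percentage of ORF counts the shares were 1.11 in *rpb1-84*, 10.7 in *rrp6∆*, 7.45 in the double mutant and 0.453 in *rpb4∆*, and without NUTs identical to another feature 0.439 in *rpb4∆*. Leaving out each library gave 3 to 6 NUTs called lower in *rrp6∆*, the 6 without WT replicate 1, and medians of 1.41 to 1.49 in the double mutant against WT. Replicate numbers did not pair the cultures (correlations of replicate differences −0.0187, −0.0191 and 0.0368), and with the replicate block 392 and 3, 350 and 8, and 13 and 36 NUTs were called higher and lower.

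Directions turned only where changes were small. In *rrp6∆* against WT, TMM from ORFs gave NUT0103 0.30, NUT1136 0.42, NUT1210 0.43, NUT0245 0.36, NUT0675 0.43 and NUT1197 0.31, and total counts gave them 0.13, 0.25, 0.26, 0.19, 0.26 and 0.14. The 4 libraries alone gave NUT1136 0.033, NUT1210 0.048 and NUT0675 0.044. Without WT replicate 1, NUT1210 had 0.0046, NUT0245 0.11 and NUT1131 −0.067, and without WT replicate 2 these last 2 had −0.32 and 0.12. Without *rrp6∆* replicate 1 NUT1210 had 0.074, NUT0675 −0.14 and NUT1013 0.28, and without replicate 2 −0.19, 0.024 and −0.041. In the double mutant against WT, TMM from ORFs gave NUT0161 0.27, NUT0293 0.13 and NUT1197 0.056, total counts gave NUT0161 0.11, and NUT0161 had 0.064 without WT replicate 1, −0.17 without WT replicate 2 and 0.059 without double-mutant replicate 1. Against *rrp6∆*, TMM from ORFs gave NUT0912 −0.00093. None of these was past the call in either direction, and the cause was not tested. Of the other values of named NUTs, 26 gained and 14 lost a call and 1682 did neither. In *rpb4∆*, the shallowest strain, 95 NUTs had 3 counts or fewer, which limits their ratios.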

Other observations

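Besides the partners of other classes, 2 pairs of these NUTs had nearly the same counts. NUT0485 and NUT0906 differed by 4.70% over the 10 libraries, with 20 and 27 counts in WT for the first and 27 and 26 for the second, and 307 and 307 beside 310 and 290 in *rrp6∆*. NUT1055 and NUT1065 differed by 4.89%, with 31 and 28 beside 28 and 29 counts in WT and 286 and 297 beside 302 and 322 in *rrp6∆*. All 4 were called higher in *rrp6∆* by edgeR, with log2 fold changes of 2.46, 2.26, 2.06 and 2.21. Whether the members of a pair share reads was not tested, and they are counted separately above.

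Of the 9 NUTs without a count in *rpb4∆*, most were also low in WT. NUT0710 had 1 count over the WT libraries and 66 over the *rpb1-84* libraries that chose it, and NUT1218 had 6 and 120. The 2 with the most counts in WT were NUT0288, with 176 in WT and 216 in *rpb1-84*, and NUT0959, with 157 and 1918.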
